A study of Mus musculus with 12 samples.

Results

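The comparison described here is that of female mice labelled Keap1 knockout (KO) with female mice labelled heterozygous for Keap1 (Het), read from muscle satellite cells. Its members were chosen by the labels for sex and genotype and are 6 of the 12 libraries of the series: Hetz164, Hetz165 and Hetz181, here called Het, and KO166, KO178 and KO188, here called KO. The other 6 libraries are the male KO and male Het animals, 3 of each. All mice are C57BL/6J, the cells came from hindlimb muscle and were frozen in liquid nitrogen right after isolation, and cDNA was made by Smart-Seq2, a method that amplifies polyadenylated RNA from small inputs. The labels call the control genotype heterogeneous, which was read as heterozygous, and give no age, no allele structure and no promoter or cell type that drives a deletion. They number the libraries without saying that each is 1 animal, so p-values measure the spread between these libraries. The controls carry a Keap1 label of their own, so no group here is wild type.

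Satellite cells are the stem cells of skeletal muscle and rest between the muscle fibre and its basal lamina until injury. KEAP1 is the adaptor that hands the transcription factor NRF2, encoded by Nfe2l2, to a ubiquitin ligase for destruction, and oxidants or electrophiles that modify KEAP1 let NRF2 accumulate. NRF2 pairs with small MAF proteins at antioxidant response elements, and its best known targets make and use glutathione, thioredoxin and NADPH. The account below concerns mainly the other genes of the female comparison, including those of middle and low level and of middle-sized change.

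Total counts in the 6 libraries ran from 16073268 to 19273245, with 21306 to 22602 genes detected, and a gene with 0 counts in a library is bounded by a floor of 3 counts, 0.150 to 0.187 CPM, counts scaled to the size of the library. CPM uses TMM factors over the 6 libraries and is not divided by gene length. The floor covers counting error only, since the reads carry no molecular identifiers. Keap1, counted over all its exons, stood at 9.91, 7.52 and 8.29 CPM in Het and at 12.4, 13.5 and 11.5 CPM in KO (log2 change 0.54, SE 0.196, adjusted p = 0.186), so its total count was not lower in the libraries labelled KO. The deposited counts do not separate a deleted part from the rest of the gene, and 10.9% of Keap1 exonic bases overlap another gene, so this count is no check of the genotype labels. KO below means the libraries labelled KO. Nfe2l2 stood at 431 ± 47.2 CPM (SD, n = 3) in Het and 483 ± 55.8 CPM in KO, which did not pass the test (adjusted p = 0.607). Of 64 best known NRF2 targets tested, 42 rose and 1 fell. The satellite cell markers Myf5, Vcam1, Calcr, Cdh15 and Itga7 were all well above the floor, the stem cell transcription factor Pax7 stood at 13.6 ± 2.6 CPM in Het and 13 ± 0.474 CPM in KO, and none of these 6 genes passed the test. The same set of markers also holds Sdc4, not reported here, and Cd34, which did pass and was lower in KO, as given below. On the first principal component, 41.8% of the variance, Hetz165 lay nearest to the KO libraries among the Het libraries.

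Between KO and Het, 319 of 14036 genes tested passed an adjusted p of 0.05, which is 2.27% of them, with 1.29% higher and 0.983% (138 genes) lower in KO. Among the 13972 genes outside the best known targets, 139 rose and 137 fell. Of these other genes, those with an average level under 2 log2 CPM gave 24 higher and 11 lower of 4348 tested, those from 2 to 5 gave 65 higher and 50 lower of 4897, and those of 5 and over gave 50 higher and 76 lower of 4727. Middle-sized changes, of 1.5- to 2.5-fold, made up 72 of the higher and 98 of the lower calls outside the best known targets, while changes of 4-fold and over made up 29 and 8. The KO and Het libraries did not overlap for any of the 319 genes called, nor for 22.3% of all genes tested. Separation of the libraries stated for a called gene below therefore adds nothing to its call. The number of calls depended on single libraries: from 144 to 1479 genes passed when 1 library was left out, or 1.36% of the genes tested without Hetz164, 10.2% without Hetz165, 1.40% without Hetz181, 1.15% without KO166, 1.41% without KO178 and 0.993% without KO188. In all 6 of these fits 119 of the 319 genes kept their call, 85 of them outside the best known targets. A gene named below kept its call in each of them unless another value is given. For gene lists, counts without Hetz165 come from the fit with the most calls, while leaving out any other library gave fewer calls than the main fit. The count of each list is to be read beside the 1.29% higher and 0.983% lower of all genes tested. List members were chosen with earlier results of these data known.

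**Figure D1:**
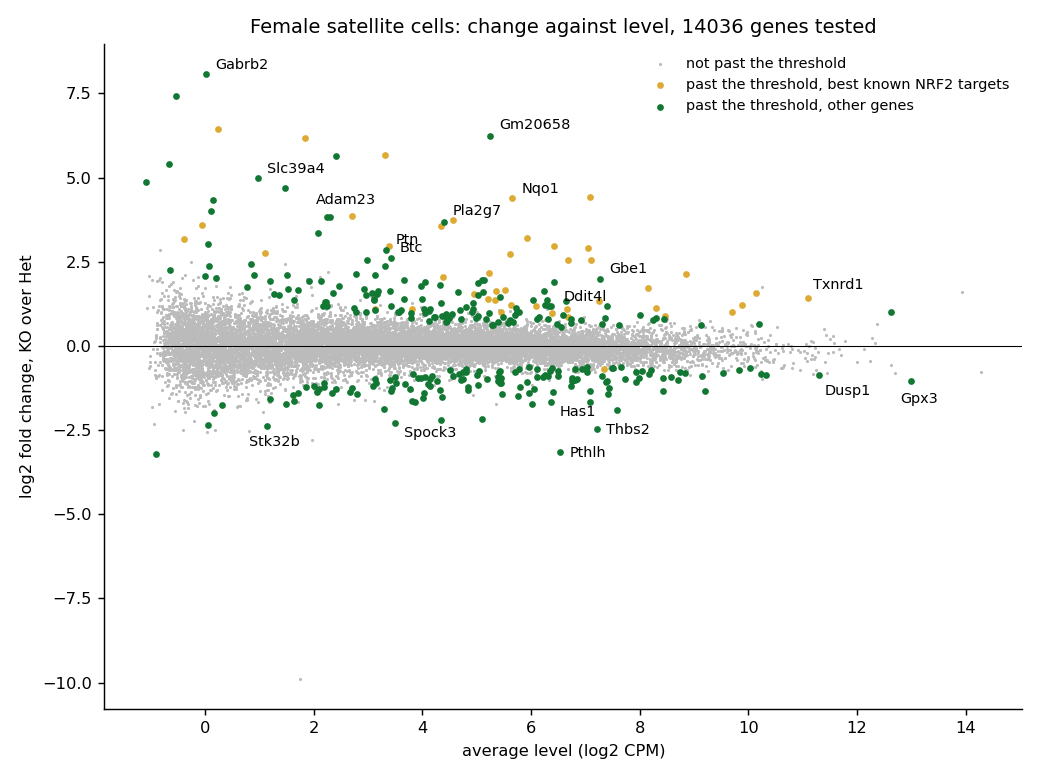
Each point is 1 of 14036 genes, with its average level in log2 CPM on the horizontal axis and the log2 fold change of KO over Het on the vertical axis; yellow marks best known NRF2 targets past the threshold, green other genes past it and grey the rest. Above a level of 5 log2 CPM the green points lie more often below 0 (76 genes) than above it (50 genes), and the change plotted for Gabrb2, whose Het libraries are all at 0, depends on the fit and is no measured fold.

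Short RefSeq promoter windows around the annotated starts (build GRCm38.p6) were searched on both strands for TGACNNNGC, the core of the antioxidant response element. It lay in a window of 16.9% of the 10030 tested genes that have one, in 29.4% of 34 best known targets that rose, in 22.8% of 101 other genes that rose and in 14.7% of 102 genes that fell. With an A required after the core, the shares were 3.35%, 8.82%, 9.9% and 2.94%. These are descriptions of letters, not of binding. A match of the form TGACTCAGC also holds TGANTCA, the element of AP-1 factors, which lay in a window of 6.25% of all tested genes with one in 32.4% of the best known targets that rose and in 8.91% of the other genes that rose. The matches before the start of 4 genes that rose and are not among the best known targets are printed below, chosen after the matches were seen, each with 10 bases on either side, on the strand that carries the motif, in capitals.
Fetub, chr16:22920102-22920130: cgcccacgcaTGACGCAGCaagaaagctg
Ddit4l, chr3:137623616-137623644: aaaggtgaccTGACCCTGCaggggcgggc
Htatip2, chr7:49759453-49759481: gtctgagctgTGACTCAGCacttccctag
Gabrb2, chr11:42420333-42420361: ggtttgggtcTGACTCTGCactaggaaat
All 4 have an A after the core in the stretch printed, and the Htatip2 stretch is the one that also holds TGANTCA. The motif ends 101 bases before the start in Fetub, 37 in Ddit4l, 40 in Htatip2 and 88 in Gabrb2.

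Fetub, which encodes fetuin-B, an inhibitor of astacin-type metalloproteinases best known from liver, stood at 1.06, 0.563 and 0.608 CPM in Het and at 7.47, 5.93 and 9.26 CPM in KO, a 10.1-fold rise (log2 3.34, SE 0.336, adjusted p = 0.000106). Ddit4l, whose product restrains mTORC1 signalling, had 40.5, 31.4 and 36.3 CPM in Het and 138, 145 and 125 CPM in KO, a 3.77-fold rise (adjusted p = 1.07e-05). Htatip2, an oxidoreductase-fold protein, rose 3.12-fold, from 5.12 ± 1.15 to 16 ± 2.76 CPM (adjusted p = 0.00178). Gabrb2, a subunit of the GABA-A receptor, had 0 counts in all Het libraries and 1.30, 1.62 and 2.64 CPM in KO, which is at least 34.4-fold higher against a floor of 3 counts over the Het group. All KO libraries lay above all Het libraries in these 4 genes.

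The gene with the smallest p outside the best known targets was Gm20658, annotated as an antisense gene, on chromosome 12 (116102769-116138648, minus strand, GRCm38) that lies inside the span of Vipr2 (116077726-116146261, plus strand) without sharing exonic bases with it. It stood at 0.891, 0.870 and 1.22 CPM in Het and at 65.6, 85.8 and 72.6 CPM in KO, a 74.9-fold rise (log2 6.23, SE 0.216, adjusted p = 1.02e-08). Vipr2, a receptor for vasoactive intestinal peptide and PACAP that signals through cAMP, rose with it, from 2.51, 2.35 and 1.93 CPM to 9.43, 18.8 and 12.2 CPM (5.92-fold, adjusted p = 0.000302). A second such pair was Nrxn2, a presynaptic adhesion protein, and the antisense gene Gm14964, of whose exonic bases 27.2% overlap another gene. Nrxn2 had 0, 0.460 and 0.111 CPM in Het and 3.81, 5.30 and 6.51 CPM in KO (25.6-fold, log2 4.68, adjusted p = 0.0012), with a log2 change of 4.13 without Hetz164 and 6.38 without Hetz165, since its Het level rests on 11 counts, and Gm14964 went from 0.198 ± 0.0841 to 10.3 ± 1.58 CPM (adjusted p = 1.79e-06). Counting ignored strand, so where the members of a pair overlap their reads cannot be told apart. All KO libraries lay above all Het libraries in all 4 of these genes. In the opposite direction, the gene D830025C05Rik fell 4.63-fold (29.2, 22.5 and 47.3 CPM in Het, 6.97, 6.36 and 8.03 in KO, adjusted p = 0.000462) beside its neighbour Letm2, a mitochondrial membrane protein, which fell 1.7-fold (adjusted p = 0.0209). For D830025C05Rik 26% of exonic bases overlap another gene, and Letm2 lost its call without Hetz164, KO166, KO178 or KO188 (adjusted p 0.0501 to 0.117).

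Gbe1, the branching enzyme that introduces branch points into glycogen, rose 4.01-fold, from 59.5, 53.6 and 71.5 CPM to 217, 247.3 and 275 CPM (log2 2, SE 0.157, adjusted p = 1.44e-05). The Het and KO libraries were apart. Ugp2, which makes the UDP-glucose from which glycogen is built, fell 1.54-fold, from 159 ± 13.7 to 103 ± 8.51 CPM (adjusted p = 0.0321), as did Ugdh, the next enzyme on the way to UDP-glucuronate (1.6-fold, adjusted p = 0.0278), the only best known target that fell. Both lost their calls when any library other than Hetz165 was left out (adjusted p 0.0856 to 0.202 for Ugp2 and 0.0617 to 0.142 for Ugdh). Of 27 glycogen and UDP-glucose enzymes tested, 2 rose and 1 fell (4 and 1 without Hetz165), with a median log2 change of 0.11 against 0.00444 over all genes.

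In glycolysis and glucose uptake, 3 of 26 genes tested rose and none fell, with a median log2 change of 0.09. That is 11.5% of them, against 2.27% of all genes tested. Gpi1, which turns glucose 6-phosphate into fructose 6-phosphate, stood at 107, 120 and 84.3 CPM in Het and 203, 237 and 267 CPM in KO (2.27-fold, adjusted p = 0.00173). The glucose transporter Slc2a1 rose 1.78-fold, from 226 ± 6.82 to 402 ± 39.3 CPM (adjusted p = 0.00565, and 0.0555 without KO188). Eno1, the enolase, rose 1.53-fold (adjusted p = 0.0445), and missed the threshold without any library other than Hetz165 (0.0739 to 0.234) and in a fit of all 12 libraries (0.0779). Tbc1d4 and Tbc1d1, paralogous GTPase activators that hold back glucose transporter traffic until insulin or AMPK signals release them, rose 3.22-fold (3.52 ± 1.26 to 11.4 ± 2.28 CPM, adjusted p = 0.00645) and 1.77-fold (119 ± 19.1 to 210 ± 14.2 CPM, adjusted p = 0.0108, and 0.0787 without KO188). Fatty acid synthesis and storage had 2 higher and no lower genes of 30 (6 and 1 without Hetz165): Plin2, the lipid droplet coat protein, and Scd2, a fatty acid desaturase. Plin2 rose from 38.3, 59.0 and 42.2 CPM to 111, 91.1 and 120 CPM (2.31-fold, adjusted p = 0.00295). Scd2 rose 2.4-fold (adjusted p = 0.0304) but not without Hetz164, Hetz181, KO166 or KO188 (0.0827 to 0.138) or with all 12 libraries (0.0537). Lpl, the lipoprotein lipase, rose 2.14-fold, from 19.4 ± 4.53 to 41.6 ± 6.12 CPM (adjusted p = 0.00787, and 0.0571 without Hetz164). Pla2g7, which hydrolyses platelet-activating factor and oxidised phospholipids, had the smallest p of all protein-coding genes outside the best known targets, with 2.62, 3.22 and 3.26 CPM in Het and 41.6, 35.7 and 39.3 CPM in KO (12.8-fold, log2 3.68, SE 0.186, adjusted p = 2.58e-07). Of Pla2g7 exonic bases, 11% overlap another gene.

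Growth factors and receptor tyrosine kinases changed in both directions: of 73 tested, 6 rose and 6 fell, with a median log2 change of 0.04. That is 16.4% of them, against 2.27% of all genes tested. Without Hetz165 the counts were 10 and 10, without KO166 5 higher and 2 lower, and without KO188 5 higher and 3 lower. Of the EGF receptor family's ligands, 4 that rose are given here. Btc, betacellulin, stood at 2.45, 3.58 and 2.87 CPM in Het and 18.5, 12.7 and 23.6 CPM in KO (6.13-fold, adjusted p = 0.000112). Ereg, epiregulin, stood at 25.1, 27.2 and 16.4 CPM in Het and 63.2, 60.1 and 66.7 CPM in KO (2.76-fold, adjusted p = 0.000762). Areg, amphiregulin, rose 2.25-fold (6.50 ± 1.41 to 14.7 ± 3.68 CPM, adjusted p = 0.0254, and 0.101 to 0.142 without Hetz181, KO178 or KO188), and Nrg1, neuregulin, rose 3.43-fold (2.43 ± 0.704 to 8.35 ± 2.55 CPM, adjusted p = 0.00871, and 0.0551 and 0.0652 without Hetz164 and KO166). Hbegf, another ligand of the family, had 215 ± 18.5 CPM in Het and 151 ± 18.3 CPM in KO (adjusted p = 0.087), and Nrg4 and Tgfa, both under 1 CPM on average in each group, did not pass (0.436 and 0.895). Btc, Ereg and Areg are neighbours on chromosome 5. Ptn, pleiotrophin, a heparin-binding cytokine, rose 7.24-fold, from 2.67, 2.46 and 2.16 CPM to 16.4, 23.4 and 13.2 CPM (adjusted p = 5.17e-05).

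Gfra2 and Gfra1, co-receptors of the GDNF family, changed in opposite directions. Gfra2, the co-receptor that prefers neurturin, rose 3.68-fold, with 17.3, 13.6 and 10.8 CPM in Het and 57.0, 47.3 and 49.1 CPM in KO (adjusted p = 0.000106). Gfra1, the co-receptor that prefers GDNF, fell 2.07-fold, with 49.2, 61.5 and 59.6 CPM in Het and 25.6, 30.1 and 26.5 CPM in KO (adjusted p = 0.00211). Gdnf itself fell 1.9-fold, from 54.6 ± 8.63 to 28.7 ± 3.59 CPM (adjusted p = 0.00898, and 0.0526 and 0.0739 without Hetz164 and KO166). Ntf3, neurotrophin-3, fell 2.8-fold, from 99.7, 58.2 and 81.5 CPM to 32.9, 26.7 and 25.8 CPM (adjusted p = 0.00113). In none of these genes did the Het and KO libraries overlap, as in every gene called. Dusp4, a phosphatase of the nucleus that switches off ERK, rose 3.88-fold (14.3 ± 3.38 to 55.6 ± 9.06 CPM, adjusted p = 0.000106), while Spry1, an inhibitor of receptor tyrosine kinase signalling that quiescent satellite cells need, fell 2.11-fold (225 ± 26.9 to 107 ± 29.1 CPM, adjusted p = 0.00736, and 0.0624 and 0.0513 without KO166 and KO188). Of Spry1 exonic bases, 24.4% overlap another gene. Nrp1, a co-receptor for semaphorins and VEGF, rose 3.09-fold, from 43.8, 35.4 and 31.9 CPM to 136, 96.8 and 110 CPM (adjusted p = 0.00015).

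**Figure D2:**
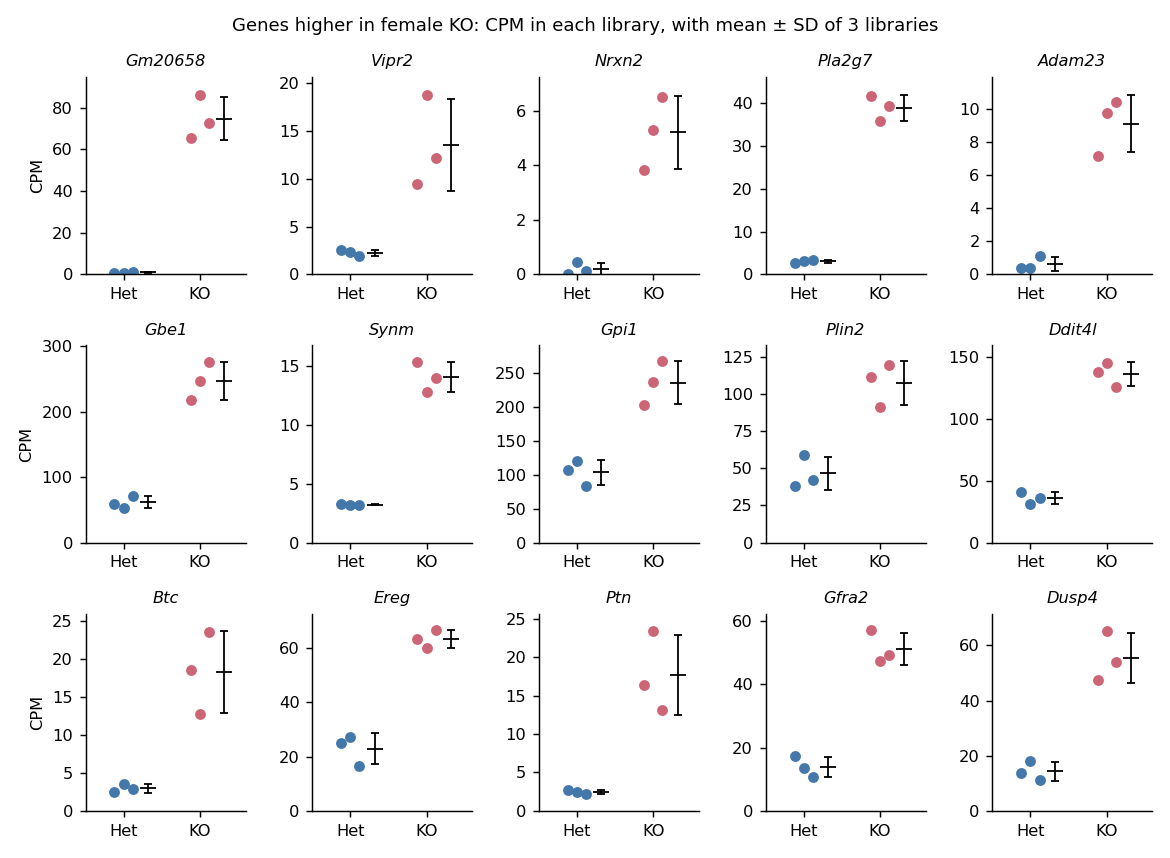
CPM on the vertical axis for 15 genes that were higher in KO, with 1 point per library (blue Het, red KO) and the mean ± SD of the 3 libraries in black; each panel has its own axis from 0. Every KO point lies above every Het point of its gene, from Gm20658 (65.6 to 85.8 CPM in KO) to Nrxn2 (3.81 to 6.51 CPM). The libraries were apart in every gene called and, in either direction, in 22.3% of all genes tested.

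Single genes known from neurons or the cytoskeleton were called in both directions, and no list of neuronal genes was counted. Of 91 small GTPase regulators and cytoskeletal genes tested, 2 rose and 2 fell, which is 4.4% against 2.27% of all genes tested. Without Hetz165 the counts in that list were 13 and 6, and 1 rose and none fell without Hetz164, Hetz181, KO166 or KO188. Adam23, a catalytically inactive adhesion protein of neurons, rose from 0.635 ± 0.408 to 9.13 ± 1.73 CPM (14.3-fold, log2 3.84, adjusted p = 0.000106), with a log2 change of 4.48 without Hetz181. Synm, the intermediate filament protein synemin, rose from 3.24 ± 0.0417 to 14 ± 1.28 CPM (4.33-fold, adjusted p = 0.000106). Mapt, the microtubule protein tau, had 6.07, 11.7 and 8.46 CPM in Het and 25.5, 32 and 35.4 CPM in KO (3.54-fold, adjusted p = 0.00098). Pfn2, the profilin of nerve cells, rose 2.44-fold (11.7 ± 0.571 to 28.6 ± 2.37 CPM, adjusted p = 0.000762), and Uchl1, a ubiquitin hydrolase abundant in neurons, rose 2.98-fold (2.52 ± 0.516 to 7.55 ± 1.08 CPM, adjusted p = 0.00614), with 18.1% of its exonic bases shared. Cdc42ep3, an effector of the GTPase CDC42, rose 2.55-fold (44.3 ± 2.07 to 113 ± 10.8 CPM, adjusted p = 0.000106). In each of these genes the 3 KO libraries stood above the 3 Het libraries. Lower in every KO library than in any Het library were Map1b, a microtubule-associated protein of neurons (1.73-fold, adjusted p = 0.0368, and 0.0834 to 0.183 without any library other than Hetz165), and Scn7a, a sodium channel (1.85-fold, adjusted p = 0.0274, and 0.0828 to 0.125 without Hetz164, KO166 or KO178). So were Fgf13, an intracellular FGF-like protein (1.93-fold, adjusted p = 0.0218, and 0.081 to 0.116 without Hetz181, KO166 or KO188), and Pcdh11x, a protocadherin (3.98-fold, adjusted p = 0.0278, and 0.0591 to 0.128 without any library other than Hetz165). Markers of Schwann and glial cells, 12 tested, gave no higher and 1 lower call (Ptprz1, 1.82-fold, adjusted p = 0.0402, and not called without Hetz164, KO166 or KO188), with summed levels of 145 to 233 CPM in Het and 168 to 197 CPM in KO. Red blood cell markers, 4 tested, gave no call by edgeR, with 0 at an unadjusted p under 0.05 and 0 by DESeq2, and their summed level was 6.24 to 17.6 CPM in Het and 8.68 to 11 CPM in KO.

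Several genes at or near the floor in Het were read clearly in KO. Slc39a4, Ces1f, Ush1c and Ptgir, like Gabrb2, Nrxn2, Gm14964 and Adam23 above, passed the filter on low counts only through the KO libraries. Their low Het level beside a readable KO level is thus part of how they came to be tested. In the same way, Pcdh11x above and Stk32b below passed it only through the Het libraries. Slc39a4, the zinc importer ZIP4, had 0, 0.102 and 0.221 CPM in Het and 3.61, 3.56 and 3.69 CPM in KO (31.6-fold, log2 4.98, adjusted p = 0.000271), with a log2 change of 4.44 without Hetz164 and 5.91 without Hetz181, since its Het level rests on 6 counts. Ces1f, a carboxylesterase, had 0 counts in all Het libraries and 0.752, 1.31 and 1.52 CPM in KO, at least 22.2-fold higher against 3 counts over the Het group; it belongs to a family of close copies, among which the counting may have split reads. Ush1c, the scaffold protein harmonin, stood at 0.167, 0.102 and 0 CPM in Het and 1.5, 2.43 and 1.88 CPM in KO (20-fold, log2 4.32, adjusted p = 0.00262), with a log2 change of 3.78 without Hetz181 and 5.02 without Hetz164, from 5 counts in Het. Ptgir, the prostacyclin receptor, rose from 0.525 ± 0.173 to 2.86 ± 0.304 CPM (5.41-fold, adjusted p = 0.00389). A pair of metal transporters at higher level also rose: Slc11a1, the divalent metal transporter of phagosomes, 3.81-fold (1.77 ± 0.866 to 6.77 ± 1.04 CPM, adjusted p = 0.0126, and 0.0775 without KO166), and Slc25a37, the mitochondrial iron importer mitoferrin-1, 1.98-fold (25.2 ± 4.87 to 50 ± 9.33 CPM, adjusted p = 0.014, and 0.0656 and 0.0918 without Hetz164 and KO188). Panx1, a channel that releases ATP, rose 3.92-fold, from 6.79, 19.5 and 15.5 CPM to 48.8, 62.6 and 52.6 CPM (adjusted p = 0.00699, and 0.0591 without Hetz181). Hspb8, a small heat shock protein of chaperone-assisted autophagy, rose 2.51-fold (56.7 ± 14.5 to 142 ± 3.61 CPM, adjusted p = 0.00105). Cdkn2b, the cyclin-dependent kinase inhibitor p15, rose 3.12-fold, from 4.34, 3.27 and 5.53 CPM to 18.1, 11.4 and 11.5 CPM (adjusted p = 0.0053). Tnfaip2, a gene induced by TNF, rose 3.74-fold (6.90 ± 2.95 to 25.9 ± 4.57 CPM, adjusted p = 0.00378), the 1 higher call among 71 chemokine, cytokine and NF-kB genes, of which none fell and whose median log2 change was -0.20. Without Hetz165 that list had 5 higher and 2 lower genes, and DESeq2 gave 2 higher and 5 lower.

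Peptide hormones and their receptors were among the genes that fell. Of 60 G protein-coupled receptors and peptide ligands tested, 6 fell and 2 rose (Vipr2 and Ptgir), with a median log2 change of -0.06. That is 13.3% of them, against 2.27% of all genes tested. Without Hetz165 the counts were 6 lower and 7 higher, without KO166 3 and 3, and without KO188 3 lower and 2 higher. Pthlh, parathyroid hormone-related protein, stood at 132, 132 and 238 CPM in Het and at 17.3, 17.1 and 22.2 CPM in KO, an 8.88-fold fall (log2 -3.15, SE 0.243, adjusted p = 2.69e-05), although its adjusted p was 0.195 with all 12 libraries in the fit. Oxtr, the oxytocin receptor, fell 4.51-fold, from 58.5, 58.4 and 50.6 CPM to 13.5, 9.67 and 13.8 CPM (adjusted p = 1.69e-05). Nppc, which encodes the natriuretic peptide CNP, fell 3.69-fold, from 12.6, 15.4 and 17.4 CPM to 4.61, 5.86 and 1.82 CPM (adjusted p = 0.0108). The lowest Het value of each lay above the highest KO value. Edn3, endothelin-3, and Bdkrb1, the inducible bradykinin receptor, which is not on the list, fell 2.1-fold and 1.9-fold (adjusted p = 0.0119 for each). Edn3 missed the threshold without KO166 (0.0777) or KO188 (0.0653), and so did Bdkrb1 (0.0744 and 0.0641). Rgs4, which shortens signals of G protein-coupled receptors, fell 3.32-fold, with 91.5, 97.7 and 108 CPM in Het and 29.7, 36.2 and 23.6 CPM in KO (adjusted p = 9.69e-05). Gabra3, another GABA-A receptor subunit, fell 3.09-fold (20.9 ± 4.24 to 6.78 ± 2.22 CPM, adjusted p = 0.00338) where Gabrb2 rose.

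Some matrix proteins and proteases were among the genes that fell, while the lists as a whole had medians near 0. None of 44 matricellular proteins and proteoglycans rose and 3 fell, with a median log2 change of 0.02, and of 41 metalloproteinases, serine proteases and inhibitors 4 fell and 1, Adam23, rose, with a median of -0.10. The calls were 6.82% of the first list and 12.2% of the second, against 2.27% of all genes tested. Without Hetz165 the first list had 4 higher and 5 lower genes and the second 3 higher and 6 lower, and DESeq2 gave 1 and 4, and 2 and 6. Thbs2 (chromosome 17, 14665500-14694235, minus strand, GRCm38), thrombospondin-2, a matricellular protein that restrains angiogenesis, stood at 233, 248 and 270 CPM in Het and 49.0, 49.5 and 38.0 CPM in KO (5.5-fold lower, log2 -2.46, SE 0.153, adjusted p = 1.61e-06). Spock3, the proteoglycan testican-3, fell 4.89-fold, from 21.2, 19.6 and 14.5 CPM to 3.06, 5.24 and 3.05 CPM (adjusted p = 0.000302). Timp3, the matrix-bound inhibitor of metalloproteinases, fell 2.69-fold, from 265, 257 and 226 CPM to 90.7, 104 and 83.2 CPM (adjusted p = 0.000106), with 21.3% of its exonic bases shared with another gene. Pcsk5, a proprotein convertase, fell 2.31-fold (40.1 ± 1.6 to 17.3 ± 3.62 CPM, adjusted p = 0.00211). Has1, a hyaluronan synthase, fell 3.17-fold, from 98.4, 122 and 153 CPM to 25.4, 42.7 and 50.1 CPM (adjusted p = 0.00374). Serpine2 and Plat, an inhibitor of serine proteases and the tissue plasminogen activator it blocks, fell 1.99-fold (284 ± 56.9 to 143 ± 17 CPM, adjusted p = 0.00691) and 2.08-fold (331 ± 112 to 159 ± 1.65 CPM, adjusted p = 0.0155). Serpine2 stood at 0.0518 without KO188, and Plat at 0.0639 to 0.0779 without KO166, KO178 or KO188. The Het and KO libraries were apart in all 7 genes named here, and 33 collagen genes and genes of collagen processing gave no higher and 1 lower call, the prolyl hydroxylase P4ha2 (1.57-fold, adjusted p = 0.0411, and 0.0527 to 0.214 without any library other than Hetz165). Without Hetz165 the collagen list had 6 higher and 3 lower genes and a median log2 change of 0.25 in place of 0.01, and DESeq2 gave 1 higher and 3 lower. The third lower matricellular gene was Thbs3 (1.86-fold, adjusted p = 0.0118, and 0.0732 and 0.0624 without KO178 and KO188).

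**Figure D3:**
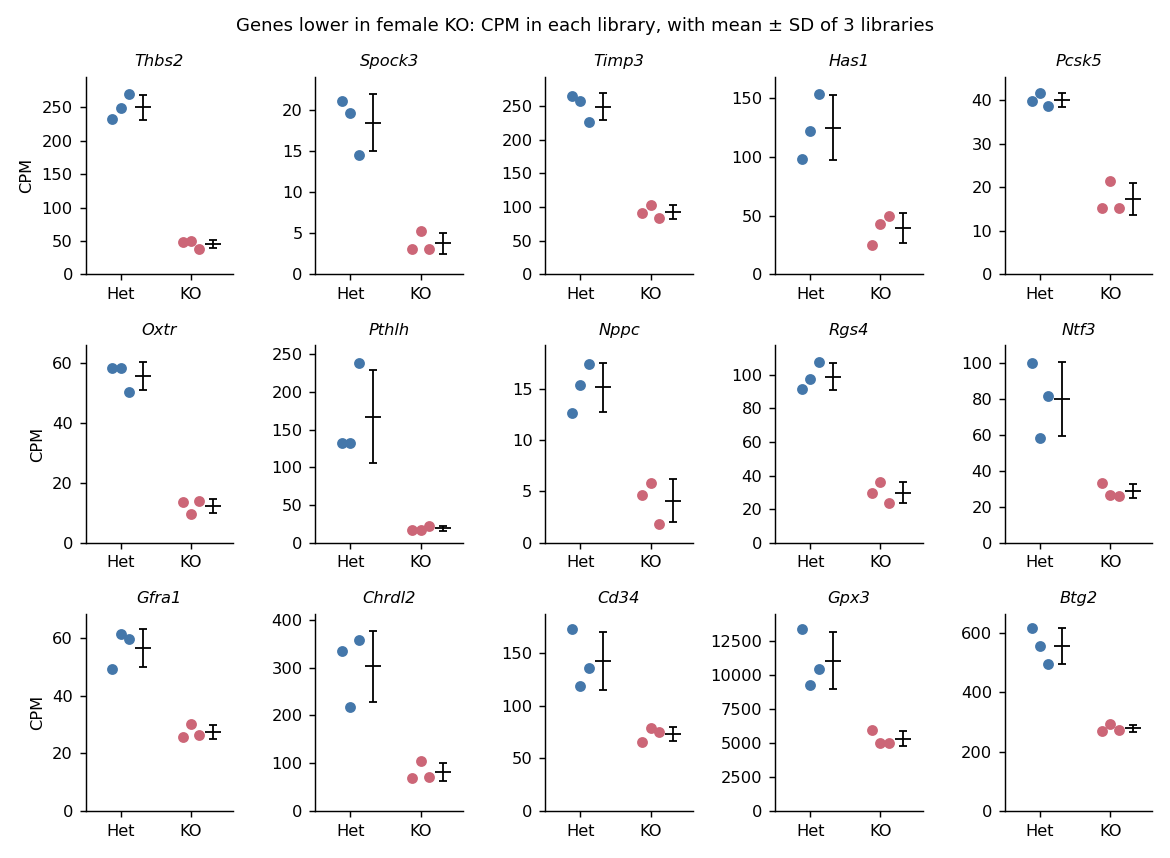
CPM on the vertical axis for 15 genes that were lower in KO, with 1 point per library (blue Het, red KO) and the mean ± SD of the 3 libraries in black; each panel has its own axis from 0. Every KO point lies below every Het point of its gene, from Gpx3 (5005 to 5995 CPM in KO) to Nppc (1.82 to 5.86 CPM). The libraries were apart in every gene called and, in either direction, in 22.3% of all genes tested.

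Of 42 genes of satellite cell identity and quiescence, 3 fell and none rose, with a median log2 change of -0.05. That is 7.14% of them, against 2.27% of all genes tested. Of these 42 genes, 6 fell and 7 rose without Hetz165, and 1 fell and none rose without KO166. Their summed level was 17506 to 17787 CPM in Het and 13029 to 16033 CPM in KO, with no overlap, and its part in the other results was not tested. The 3 were Chrdl2, Spry1 and Cd34. Chrdl2, a chordin-like binder of BMP ligands, stood at 334, 218 and 357 CPM in Het and 69.7, 104 and 70.2 CPM in KO (3.73-fold lower, adjusted p = 0.000405). Cd34, a surface sialomucin of resting satellite cells, fell 1.95-fold, from 173, 119 and 136 CPM to 65.7, 79.0 and 75.2 CPM (adjusted p = 0.0061, and 0.0566 without KO166). Calcr, the calcitonin receptor that marks quiescent cells, had 134 ± 15.2 CPM in Het and 90.1 ± 18 CPM in KO (adjusted p = 0.0998). Surface proteins with middle-sized falls were Cd200, an immunoglobulin-family ligand (1.89-fold, 497 ± 63.2 to 263 ± 5.84 CPM, adjusted p = 0.00385), and Tspan7, a tetraspanin (1.85-fold, 205 ± 24.2 to 111 ± 4.48 CPM, adjusted p = 0.00389). Alpl, the tissue-nonspecific alkaline phosphatase, fell 2.44-fold (94.5 ± 13.8 to 38.8 ± 8.91 CPM, adjusted p = 0.00178). Neu2, the cytosolic sialidase, fell 3.19-fold, from 203, 208 and 208 CPM to 47.4, 76.4 and 70.6 CPM (adjusted p = 0.000138). Nebl, the actin-binding protein nebulette, fell 2.48-fold (adjusted p = 0.00172), and Lmcd1, a LIM-domain regulator of transcription, fell 1.96-fold (35.6 ± 1.29 to 18.1 ± 0.674 CPM, adjusted p = 0.00317). The KO libraries lay below the Het libraries in each of these genes that fell.

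While 42 best known targets rose, Gpx3 and Sod3, enzymes that act on oxidants outside the cell, fell. Gpx3, the extracellular glutathione peroxidase, stood at 13431, 9322 and 10501 CPM in Het and at 5995, 5005 and 5019 CPM in KO (2.08-fold lower, log2 -1.05, SE 0.18, adjusted p = 0.00712). Sod3, the extracellular superoxide dismutase, fell 1.54-fold, from 76.0, 78.3 and 73.3 CPM to 54.2, 49.8 and 43.3 CPM (adjusted p = 0.0328). Gpx3 missed the threshold without KO178 (0.0602) or KO188 (0.0608), and Sod3 without any library other than Hetz165 (0.0553 to 0.206). In both the Het and KO libraries were apart.

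Rian, a long non-coding RNA of the imprinted Dlk1-Dio3 region on chromosome 12, fell 2.32-fold, with 68.4, 93.5 and 70.3 CPM in Het and 29.6, 34.6 and 35.9 CPM in KO (adjusted p = 0.00117). Meg3, from the same region, stood at 370, 636 and 349 CPM in Het and 228, 276 and 203.6 CPM in KO (1.91-fold lower, adjusted p = 0.0496). Meg3 missed the threshold without Hetz164, KO166, KO178 or KO188 (0.0723 to 0.206). Both RNAs were lower in every KO library than in any Het library.

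Immediate early genes and heat shock genes, which cells switch on rapidly after stimulation or stress, gave 4 lower and 1 higher of 52 (median log2 change -0.14, and 6 lower and 4 higher without Hetz165) and 3 lower and 1 higher of 31 (median -0.05). Without KO188 the first list had 1 lower and 1 higher gene, and the second none lower and 1 higher. Btg2, an antiproliferative immediate early gene, fell 2-fold, from 616, 556 and 495 CPM to 269, 293 and 274 CPM (adjusted p = 0.0019). Ier2 fell 1.74-fold, from 1042, 871 and 931 CPM to 546, 543 and 544 CPM (adjusted p = 0.00761, and 0.06 and 0.0628 without KO178 and KO188). Dusp1, a phosphatase of MAP kinases, fell 1.82-fold (3275 ± 460 to 1799 ± 155 CPM, adjusted p = 0.0125, and 0.0515 to 0.077 without Hetz164, KO166, KO178 or KO188). Zfp36l1, which hastens the decay of AU-rich mRNAs, fell 1.69-fold (adjusted p = 0.0328, and 0.0577 to 0.166 without Hetz164, Hetz181, KO166 or KO188). The higher genes of the 2 lists were Dusp4 and Hspb8. Dnajb1, an HSP40 co-chaperone, fell 1.69-fold (536 ± 93.8 to 316 ± 7.83 CPM, adjusted p = 0.021), and Hspa1a, inducible HSP70, fell 2.52-fold (adjusted p = 0.0253), with 19% of its exonic bases shared and a near-identical copy beside it, Hspa1b (2.3-fold lower, adjusted p = 0.0468), among which reads may have been split. Dnajb1 missed the threshold without Hetz181, KO166, KO178 or KO188 (0.0693 to 0.113), and Hspa1a without Hetz165, Hetz181, KO178 or KO188 (0.0678 to 0.118) and with all 12 libraries (0.114). Hspa1b missed it without Hetz181, KO166, KO178 or KO188 (0.0623 to 0.183), with all 12 libraries (0.074) and without the robust step. Ppp1r15a, the stress-induced subunit that directs dephosphorylation of eIF2 alpha, fell 1.83-fold (1667 ± 211 to 909 ± 65.4 CPM, adjusted p = 0.00765, and 0.071 without KO188). Of 32 endoplasmic reticulum chaperones and genes of the unfolded protein response 1 fell, Creld2 (1.72-fold, adjusted p = 0.0403, and 0.0838 to 0.184 without any library other than Hetz165), and the list's median log2 change was -0.30. In that list 17 of 32 genes had all KO libraries below all Het libraries, against 10.5% of all genes tested, and 14 fell when Hetz165 was left out, while DESeq2 called 9 lower.

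**Figure D4:**
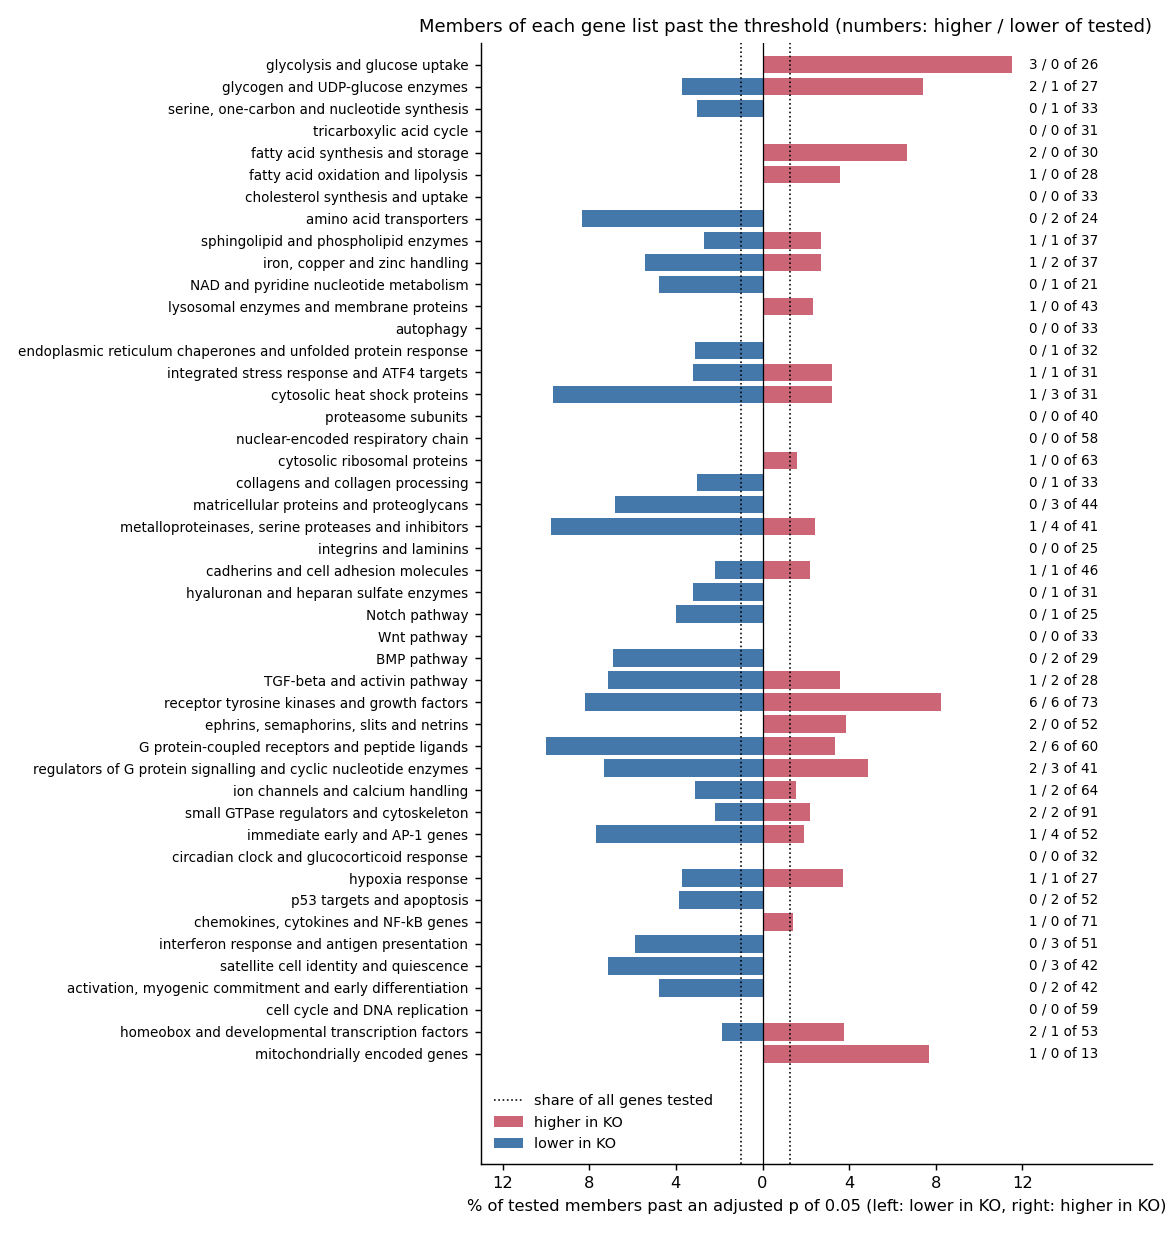
For each gene list, the share of tested members that passed an adjusted p of 0.05, drawn to the right for higher and to the left for lower in KO, with the counts at the right and dotted lines at the shares over all genes tested, 1.29% higher and 0.983% lower. Receptor tyrosine kinases and growth factors have 6 of 73 on either side, and 9 lists have no bar.

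In 9 of the lists drawn no gene passed edgeR's test: the tricarboxylic acid cycle (31 tested), cholesterol synthesis and uptake (33), autophagy (33), proteasome subunits (40), the nuclear-encoded respiratory chain (58), integrins and laminins (25), the Wnt pathway (33), clock and glucocorticoid genes (32), and the cell cycle (59). At an unadjusted p under 0.05 they held 7, 6, 8, 5, 8, 7, 7, 4 and 4 genes in that order, where all genes tested gave 2511. DESeq2 called 2, 2, 2, 1, 2, 1, 5, 0 and 0 of them, against 723 of all genes. Without Hetz165, edgeR called 8, 3, 8, 4, 5, 4, 5, 2 and 1 of them. Of 63 cytosolic ribosomal protein genes 62 had a positive log2 change, with a median of 0.41, but only Rps20 passed edgeR's test (1.88-fold higher, adjusted p = 0.0466), and not without Hetz164, Hetz181, KO178 or KO188 (0.121 to 0.207). Without Hetz165 or KO166, 4 and 3 of the 63 passed, and 7 by DESeq2, all higher. Beside it stands mt-Rnr2, the large mitochondrial ribosomal RNA, which rose 2-fold, from 4815, 4904 and 3002 CPM to 6756, 8383 and 10270 CPM (adjusted p = 0.0328, and 0.0917 to 0.173 without Hetz164, Hetz181, KO178 or KO188). The share of all counts from the 2 mitochondrial ribosomal RNAs was 0.302 to 0.507% in Het and 0.733 to 1.03% in KO, and its part in the other results was not tested.

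Markers of other cells were read in every library. Beside the falls described above, markers of leukocytes and macrophages had lower levels in KO: 4 of 21 tested fell and none rose, the median log2 change was -0.85, and their summed level was 153 to 220 CPM in Het and 70.3 to 101 CPM in KO. Cd14, the lipopolysaccharide co-receptor, fell 2.55-fold, from 14.9, 14.8 and 16.1 CPM to 7.07, 5.68 and 5.16 CPM (adjusted p = 0.00295). Cd74, the invariant chain, fell 2.7-fold, from 64.4 ± 13.5 to 23.8 ± 7.36 CPM (adjusted p = 0.00389, and 0.16 with all 12 libraries). The antigen-presenting H2-Ab1 fell 2.85-fold (adjusted p = 0.0108), but not without Hetz164 (0.0616) or KO188 (0.0651) or with all 12 libraries (0.134), and lysozyme Lyz2 fell 2.3-fold (adjusted p = 0.0392, and 0.13 to 0.164 without Hetz164, KO178 or KO188). In bulk libraries fewer leukocytes, less of these RNAs per leukocyte and less of them in other cells cannot be told apart. The part of leukocytes in the other falls was not tested. The common leukocyte antigen Ptprc stood at 2.35 ± 0.934 CPM in Het and 1.28 ± 0.685 CPM in KO (adjusted p = 0.339). Of the other marker lists, fibro-adipogenic progenitors gave no call (17 tested, median log2 change -0.33, 6 at an unadjusted p under 0.05, 3 by DESeq2 and 2 without Hetz165), with 5133 to 7756 CPM summed in Het and 4845 to 5704 CPM in KO. Endothelial cells gave 1 lower call of 18, Rgcc (2.62-fold, adjusted p = 0.0159, and 0.077 and 0.0849 without KO166 and KO188; summed level 250 to 303 CPM in Het and 228 to 292 CPM in KO). Myofibre markers gave no call (17 tested, median 0.46, 1 at an unadjusted p under 0.05 and 0 by DESeq2), with 201 to 556 CPM in Het and 193 to 956 CPM in KO. Tenocyte markers gave no call (12 tested, median 0.34, 4 at an unadjusted p under 0.05 and 0 by DESeq2), with 4478 to 6312 CPM in Het and 3456 to 4673 CPM in KO. That list includes the immediate early gene Egr1, and Col1a1, which is also on the fibro-adipogenic list, so its sum is not specific to tenocytes.

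**Figure D5:**
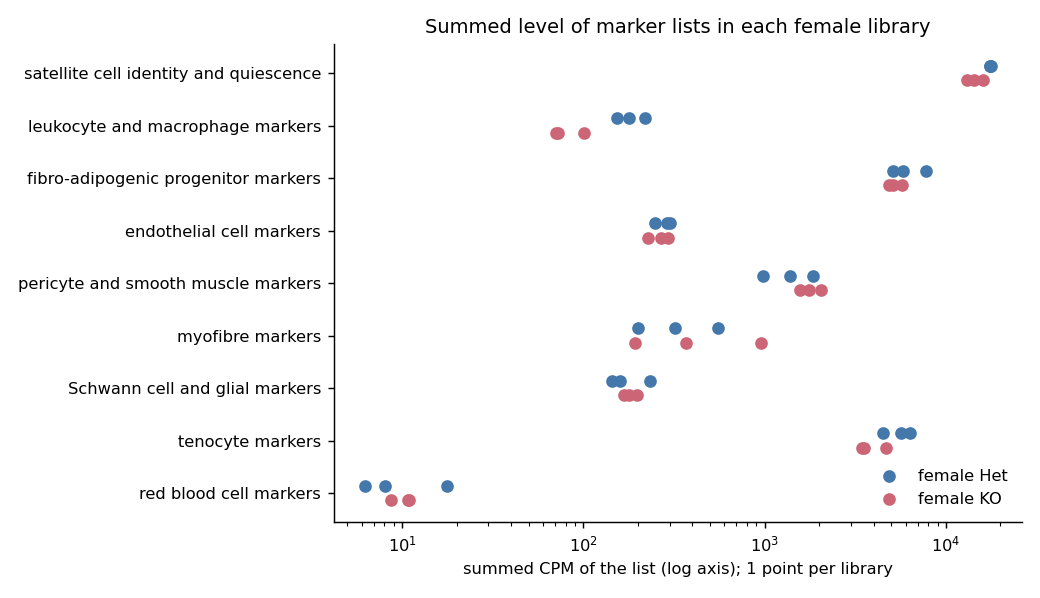
Summed CPM of the genes of 9 marker lists on a log axis, with 1 point per library (blue Het, red KO). The leukocyte and macrophage sums lie apart (153 to 220 CPM in Het, 70.3 to 101 CPM in KO), and so do the sums of satellite cell identity genes (17506 to 17787 CPM in Het, 13029 to 16033 CPM in KO), while those of the other 7 lists overlap.

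In the male mice, which share no library with the females, the genes called in females had smaller median changes. In a fit of all 12 libraries, 41 of the 42 best known targets that rose in females had a positive change in males, and so did 120 of the 139 other genes that rose (86.3%), against an equal sign in 53.8% of all genes. Of the 138 genes that fell in females, 100 had a negative change in males (72.5%). The median log2 change of the other raised genes was 1.26 in females and 0.65 in males, and that of the lowered genes -1.05 and -0.23. The females chose these genes, which favours large female changes, while the male changes rest on the male libraries. Smaller male medians would follow from that choice even with equal changes, so they are no measure of a difference between the sexes. The male p-values use a spread estimated over all 12 libraries, females included, so they are not fully independent of the choice. In males 31 of the 139 other raised genes and 8 of the 138 lowered genes passed the test with the same sign, where 0.63% of all 14772 genes passed in males, 0.542% higher and 0.088% lower. Gm20658 (log2 change 7.19, adjusted p = 3.38e-10), Pla2g7 (3.73, 2.02e-07), Gm14964 (4.48, 5.32e-06), Ddit4l (1.85, 1.73e-05), Gbe1 (1.69, 2.98e-05), Adam23 (4.57, 0.000292), Btc (2.04, 0.000834) and Vipr2 (2.32, 0.00153) were among those that rose in males too. Nppc (-2.30, 0.00154), Chrdl2 (-1.37, 0.00355), Thbs2 (-1.20, 0.00517), Lmcd1 (-0.89, 0.00624) and Gfra1 (-0.89, 0.00835) were among those that fell. Pthlh (-0.70, 0.874), Oxtr (-0.67, 0.608), Spock3 (-0.40, 0.549), Ptn (1.04, 0.148), Lpl (0.01, 0.993) and Cd200 (0.24, 0.643) did not pass in males, which is no test of a difference between the sexes.

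The difference itself, the female change minus the male change, passed for 1 of 14772 genes tested (0.00677%). It was Aldh3a1, an aldehyde dehydrogenase among the best known targets, with a difference of 2.51 on the log2 scale (SE 0.344, 95% interval 1.78 to 3.24, adjusted p = 0.0319). On the scale of all 12 libraries the female Het values were 8.86, 12.9 and 12.6 CPM and those of female KO 216, 213 and 316 CPM, while male Het had 43.8, 30.9 and 23.2 CPM and male KO 131, 151 and 90.2 CPM. The difference missed the threshold without Hetz181 (0.0957), KO188 (0.0642), male Hetz245 (0.0905) or male KO240 (0.114). Aldh3a1 rose in each sex, and the female Het libraries lay below all male Het libraries. The sexes are separate sets of libraries in separate tables, so sex cannot be told apart from any other difference between the sets. At an unadjusted p under 0.05 there were 1829 genes, and DESeq2 called 238.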

How the data were processed

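The authors deposited raw whole-number counts of fragments per gene. Per the file headers, featureCounts 2.0.0 made them from exons, with the annotation of Ensembl GRCm38 (release 99), paired fragments and no use of strand. They are not estimated counts, per the file headers, so none was rounded. The submitters' processing notes name STAR, mm10 and DESeq2, without versions. Each sex was deposited as a table of 55385 genes, and 0 columns belonged to other samples.

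From these counts KO and Het were compared over the 6 female libraries with edgeR 4.0.16 under R 4.3.3, by its quasi-likelihood F test (robust, TMM factors, filterByExpr with a minimum count of 10, Benjamini-Hochberg adjustment over all genes tested, threshold 0.05, no fold threshold). The difference of the sexes and all male values came from 1 fit of the 12 libraries. Alternatives were DESeq2 1.42.0, its size factors in edgeR, no filter, a minimum count of 30, no robust step, all 12 libraries, a 2-fold threshold and each library left out in turn. Counts were simulated for the 14036 female genes, of which 67 were changed 1.5-fold, 67 2-fold and 66 4-fold. Of these edgeR recovered 13.4%, 58.2% and 89.4% in that order, and it made 16 false calls among the unchanged genes. Simulated libraries were drawn independently around the gene means, so none departed from its group as a whole.

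Lists are described by counts of calls and medians, with no set test. Members and lists were chosen with earlier results of these data known. The rule for named genes takes Keap1 and Nfe2l2, then, outside the best known targets and genes without a proper symbol, the 6 smallest p per direction in each of 3 level bands (bounds 2 and 5 log2 CPM), the 10 smallest p per direction among changes of 1.5- to 2.5-fold, up to 6 called members per list, and up to 10 genes for the difference of the sexes. Chosen after their values were seen were Gm20658, Gm14964, D830025C05Rik, Letm2, Htatip2, Tbc1d1, Tbc1d4, Areg, Nrg1, Gdnf, Mapt, Uchl1, Slc11a1, Slc25a37, Cdkn2b, Bdkrb1, Gabra3, Gpx3, Sod3, Meg3, Ugdh, Fgf13, Hbegf, Nrg4, Tgfa and the satellite cell markers and Ptprc given as checks. Some genes past the threshold are not reported here.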

Additional observations from a re-analysis of the deposited data

Results flagged for a closer look

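The change of Aldh3a1 differed between the female and male libraries by the test of the difference itself: the female log2 change minus the male one was 2.51 (SE 0.344, adjusted p = 0.0319 with edgeR), from 4.44 in females and 1.93 in males. Sex cannot be told apart here from any other difference between the 2 sets of libraries. Female Het stood at 11.4 ± 2.23 CPM and male Het at 32.6 ± 10.4 CPM, and female KO at 248 ± 58.8 CPM and male KO at 124 ± 30.9 CPM (SD, n = 3 each). Without Hetz181, KO188, male Hetz245 or male KO240 the adjusted p of the difference was 0.0957, 0.0642, 0.0905 and 0.114, with a difference of 2.3 to 2.58, and no gene passed.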

How the results depend on the processing

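Against 319 genes called between female KO and Het, DESeq2 called 723, no filter on low counts gave 1000 and a threshold of 2-fold left 207, while DESeq2's size factors (322), a minimum count of 30 (311), no robust step (299) and all 12 libraries (477) stayed within 1.5 times. Leaving out 1 library gave 144 to 1479 calls. Against 1 gene for the difference of the sexes, DESeq2 called 238 and no filter 358, and leaving out 1 library gave 0 to 206; edgeR's 0 came without Hetz181, KO188, male Hetz245 or male KO240, with 1214 to 1643 genes at an unadjusted p under 0.05. The cause was not tested. No call reversed its direction in a fit that tested the gene. All 12 other fits tested 302 of the 319 genes, and 110 kept their call in all of them, 101 of these also with a change of 2-fold. DESeq2's size factors moved the median log2 change of all genes from 0.00444 to -0.00211. The share of calls that were higher was 56.7%, 48% with DESeq2 and 71.7% without KO166. No paired analysis was possible because no replicate number occurs in both groups. Under a level of 2 log2 CPM 40 of 4355 genes were called and at 5 and over 155 of 4768, and the part of depth was not tested.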

Other observations

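Several gene groups outside the account above held a few calls each. Of 24 amino acid transporters tested, 2 fell and none rose (2 and 3 without Hetz165): Slc1a3, a glutamate transporter, stood at 3.67, 5.17 and 3.43 CPM in Het and 1.2, 1.12 and 1.41 CPM in KO (3.28-fold lower, adjusted p = 0.0107 with edgeR, and 0.0678 and 0.0514 without KO166 and KO178). Slc38a4, a transporter of neutral amino acids, fell 2.66-fold, from 9.88 ± 3.44 to 3.69 ± 0.921 CPM (adjusted p = 0.0244, and 0.058 to 0.117 without Hetz164, KO178 or KO188). In the TGF-beta and activin list 1 of 28 rose and 2 fell (2 and 4 without Hetz165). The ligand Tgfb1 rose 2.3-fold, from 2.82 ± 0.79 to 6.47 ± 0.468 CPM (adjusted p = 0.0368), while Tgfbi, a matrix protein named for its induction by TGF-beta, fell 2.62-fold (23.5 ± 7.42 to 8.97 ± 2.14 CPM, adjusted p = 0.01), and Fst, follistatin, an antagonist of activin and myostatin, fell 2.15-fold (15.4 ± 2.15 to 7.15 ± 1.77 CPM, adjusted p = 0.0201). Tgfb1 missed the threshold without Hetz181, KO166, KO178 or KO188 (0.0848 to 0.142), Tgfbi without KO188 (0.0506) or with all 12 libraries (0.0622), and Fst without Hetz164, KO166 or KO188 (0.1 to 0.112).

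Among lowly read genes that fell, Stk32b, a serine/threonine kinase, stood at 2.56, 4.35 and 3.54 CPM in Het and 0.652, 0.811 and 0.528 CPM in KO (5.22-fold, adjusted p = 0.0035). Runx2 and Gli3, developmental transcription factors, rose 2.03-fold (7.74 ± 1.32 to 15.7 ± 2.31 CPM, adjusted p = 0.0218) and 1.63-fold (16.5 ± 1.38 to 26.8 ± 2.03 CPM, adjusted p = 0.0398), 2 higher calls beside 1 lower (Lmcd1) of 53 in their list (6 and 2 without Hetz165). Runx2 missed the threshold without Hetz164, KO178 or KO188 (0.0685 to 0.14), and Gli3 without any library other than Hetz165 (0.0591 to 0.172).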
